A study of Homo sapiens with 16 samples.

Results

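Gene deserts are long stretches of the genome with no protein-coding gene. They often lie beside regulators of development and genes of the nervous system, tend to be rich in A and T and to replicate late, and some hold enhancers that act on a gene far away. NF-κB is a family of dimeric transcription factors that bind short GC-rich sites. RELA (p65) acts mainly in the canonical arm of the pathway, and RELB and NFKB2 (made as p100 and processed to p52) act in the non-canonical arm.

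NF-κB ChIP-seq peaks in gene deserts of T47D cells were examined here. A desert peak was a listed peak of up to 5000 bp on chromosomes 1 to 22 or X whose summit lay over 500 kb from every protein-coding gene span and over 5 Mb from a centromere. There were 551230 such peaks among 6170529 in 12 libraries, and 2435186 peaks had their summit inside a protein-coding gene span. There were 298 deserts, and 289 of them held a peak in at least 1 library.

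T47D cells are an established human line from a luminal breast cancer that expresses the estrogen receptor. The knockdown cells carried a lentiviral hairpin against DAB2IP, a RasGAP that switches Ras signalling off. The control cells carried a control vector, which the paper describes as empty in its methods and as a scrambled hairpin for its spheroid assay. Both were stable puromycin-selected lines, and the extent of the knockdown was not analysed here. Chromatin was crosslinked with disuccinimidyl glutarate and formaldehyde and precipitated with antibodies against RELA, RELB or NFKB2, with 2 libraries for each antibody and condition. The 3 libraries of a condition and replicate number had the same input by their labels and are called a preparation, which gave 4 preparations. Since the labels do not say whether replicates were separate cultures, the p-values measure the spread between these samples, which may be technical.

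The number of desert peaks ran from 5919 to 67177 per library. The knockdown RELA and RELB libraries of replicate 1 stood apart, with 8829 and 5919 desert peaks, while the other 10 libraries had between 43527 and 67177. In these 2 libraries alone the recovered numbers showed an IP that had been scaled down before peak calling, to 0.910 and 0.982. The lists hold all peaks down to an unadjusted p of 0.05, so most of the peaks are weak. The number of fragments under a summit and its local background were recovered from each peak's fold enrichment and p-value. The mean was between 2.48 and 4.71 fragments per desert summit in the different libraries, and between 22.9% and 86.7% of the desert summits of a library had 3 fragments or fewer.

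The first question was whether peaks are sparser or denser in deserts than in genes. Density was the number of summits per Mb of territory, and only 10 kb bins with a peak in any of the 12 lists counted as territory. This gave 211 Mb of desert, 8.21% of the territory used, and 1159 Mb of gene spans. For RELA, knockdown replicates 1 and 2 had 41.7 and 318 peaks per Mb of desert against 36.5 and 233 per Mb of gene span, and the controls had 221 and 206 against 180.2 and 177. For RELB, knockdown replicates 1 and 2 had 28.0 and 256 peaks per Mb of desert against 26.0 and 187 per Mb of gene span, and the controls had 221 and 224 against 192 and 179. For NFKB2, knockdown replicates 1 and 2 had 227 and 287 peaks per Mb of desert against 197 and 225 per Mb of gene span, and the controls had 282 and 295 against 244 and 225. Peaks were denser in deserts than in gene spans in 12 of 12 libraries. Deserts held between 8.68% of the peaks (95% exact Clopper-Pearson interval 8.47 to 8.89) in the knockdown RELB library of replicate 1 and 10.8% (10.7 to 10.8) in that of replicate 2. These intervals cover counting error only.

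On the log2 scale the ratio of desert to gene-span density was 0.17 and 0.42 in the knockdown preparations and 0.24 and 0.31 in the control preparations. The mean was 0.28 ± 0.11 (SD, n = 4 preparations), or 1.22-fold, and all 4 preparations were above 0. In an exact two-sided sign-flip permutation test this is 2 of 16 sign patterns, the fewest that 4 preparations allow, so the design cannot reach a p of 0.05. The direction rests on how assembly gaps are treated. With every base counted as territory, which takes the deserts from 211 to 281 Mb by adding bins in which no list held a peak, the mean was -0.095 and 3 of 12 libraries had the higher density in deserts. When each chromosome's desert density was set against its own gene spans the mean was 0.24, and without chromosome X it was 0.27, with 12 of 12 libraries above 0 in both.

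**Figure D1:**
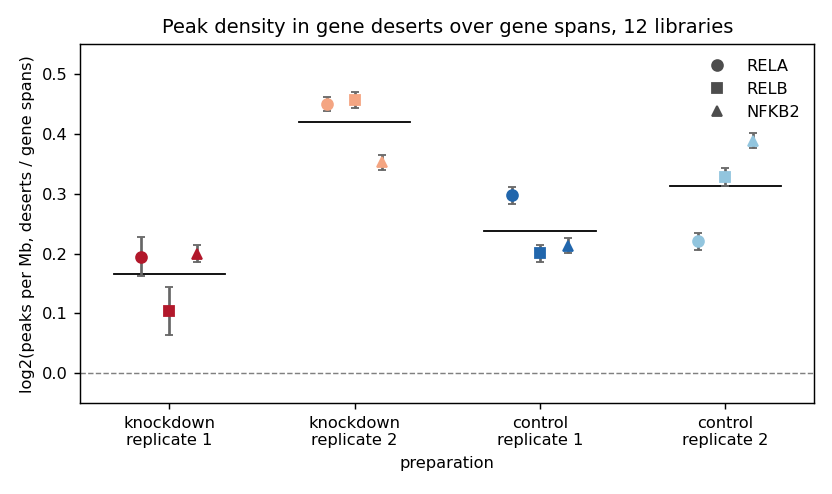
Log2 ratio of peak density in gene deserts over protein-coding gene spans (y axis) in the 12 libraries, grouped by preparation (x axis, colour) with the antibody as the marker. Error bars are 95% counting intervals and black lines are preparation means. All 12 points lie above 0, from 0.10 to 0.46, and the knockdown preparations are the lowest and the highest.

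Beyond the first 50 kb the density rose with distance from genes. Relative to gene spans, the mean log2 density over the 12 libraries was -0.05 ± 0.04 (SD) at up to 50 kb from a gene, 0.09 ± 0.03 at 50 to 200 kb and 0.19 ± 0.07 at 200 to 500 kb. Inside the deserts it was 0.27 ± 0.10 at 500 to 750 kb, 0.28 ± 0.11 at 750 to 1000 kb and 0.31 ± 0.13 beyond 1000 kb. At up to 50 kb, 0 of 12 libraries lay above their gene spans. Each later step up to 500 to 750 kb was a rise in 12 of 12 libraries. The next step was a rise in 9 libraries and the last in 10, so the deepest parts of the deserts differed less from each other than from gene spans.

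**Figure D2:**
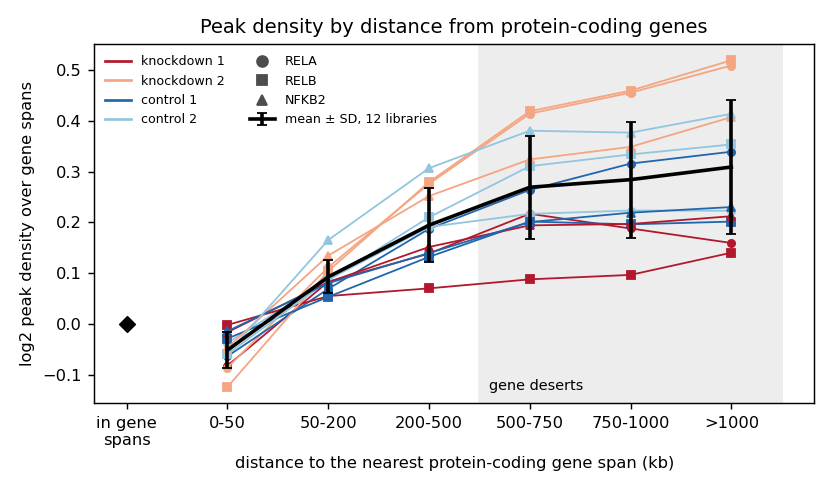
Log2 peak density relative to gene spans (y axis) by distance of the summit from the nearest protein-coding gene span in kb (x axis), with 1 line per library, coloured by preparation, and the mean ± SD of the 12 libraries in black. The mean climbs from -0.05 next to genes to 0.31 beyond 1000 kb, and the shaded steps are the gene deserts.

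The peaks themselves differed little in height between the zones. The median fold enrichment was between 2.16 and 2.70 in deserts and between 2.19 and 2.63 in gene spans, and it was higher in deserts in 9 of 12 libraries and equal in 2. Desert summits had a lower median local background in 9 of 12 libraries and an equal one, within 0.0001 of the value, in 3. It was 0.530 to 1.10 fragments in deserts and 0.623 to 1.14 in gene spans. Their mean number of fragments was lower in 11 of 12 libraries, and the share of summits with 3 fragments or fewer was higher in 12 of 12. The background thus moved with the density, and its part in the density difference was not tested.

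Of the 21 chromosomes with at least 1 Mb of desert territory, all 21 had a mean ratio above 0, from 0.11 on chromosome 2 to 0.57 on chromosome 17. The density was higher in deserts in 241 of 252 pairs of chromosome and library. Within deserts, the spans of long non-coding RNA (lncRNA) genes made up 22.7% of the territory. Peaks were slightly sparser there than in the rest of the desert, by a mean log2 ratio of -0.05 ± 0.03 (SD, n = 12 libraries), with 1 of 12 libraries above 0.

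The second question was whether DAB2IP knockdown moved peaks into or out of deserts. The log2 desert ratio of RELA was 0.20 and 0.45 with knockdown and 0.30 and 0.22 in controls, a difference of 0.06 (exact permutation p = 1.00). That of RELB was 0.10 and 0.46 against 0.20 and 0.33, a difference of 0.02 (exact permutation p = 1.00). That of NFKB2 was 0.20 and 0.35 against 0.21 and 0.39, a difference of -0.02 (exact permutation p = 0.667). These two-sided tests of 2 libraries against 2 cannot go below 0.33. The groups overlapped for each antibody, and the spread between replicates was larger than each difference. The sign of each difference changed when a library was left out. The antibody means of the ratio were 0.29 for RELA, 0.27 for RELB and 0.29 for NFKB2, with p = 0.972 in an exact permutation of the antibody names within preparations. The 3 pairwise differences had mean values of 0.02 ± 0.10 (RELA minus RELB), 0.00 ± 0.12 (RELA minus NFKB2) and -0.02 ± 0.09 (RELB minus NFKB2; SD, n = 4 preparations), each with an adjusted p of 1.00 in exact sign-flip tests.

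Single regions recurred rarely. For each antibody, overlapping peaks of its 4 libraries were joined into regions. A knockdown-only region had a peak in both knockdown replicates and in no control, and a control-only region the reverse. For RELA, 968 of 144802 desert regions were knockdown-only (0.668%, with 0.566% over all regions) and 3576 were control-only (2.47%, with 2.44% over all regions). For RELB, 498 of 135411 desert regions were knockdown-only (0.368%, with 0.347% over all) and 4119 were control-only (3.04%, with 2.96% over all). For NFKB2, 4128 of 185910 desert regions were knockdown-only (2.22%, with 2.09% over all) and 5845 were control-only (3.14%, with 2.93% over all). The desert shares thus lay near those of the whole genome. Pairings of 1 knockdown with 1 control library gave between 564 and 6155 regions for RELA, between 419 and 5083 for RELB and between 4101 and 6146 for NFKB2, so the condition counts lay inside the range of the mixed ones for each antibody, in both directions. For RELA and RELB the short knockdown lists of replicate 1 move with the low knockdown-only counts. Lists of equal size were also compared, with the 20000 smallest p-values of each library. Among 6858 desert regions RELA then had 14 knockdown-only and 7 control-only ones, and its mixed pairings gave 6 to 16. For RELB the counts were 17 and 13 of 7117, with 8 to 16 in mixed pairings. For NFKB2 they were 10 and 10 of 7550, with 10 to 16 in mixed pairings. Of these counts, only the 17 of RELB lay outside its mixed range, so no direction is read from them. The regions called in all 4 libraries numbered 64 for RELA (0.0442%, with 0.0345% over all), 45 for RELB (0.0332%, with 0.0274% over all) and 718 for NFKB2 (0.386%, with 0.308% over all).

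Overlap followed the preparation. The Jaccard index, the bases under desert peaks of both libraries over the bases under peaks of either, averaged 4.37% for the 12 pairs of 1 preparation. It was 2.40% for the 6 pairs of replicates, 2.57% for the 12 pairs with the same antibody in the other condition and 2.41% for the 36 remaining pairs. The separation by preparation was 1.93 percentage points (exact one-sided permutation, p = 0.00174, the smallest of 576 orderings), and that by condition was 0.683 percentage points (p = 1.00 of 3 splits). The pairs of 1 condition include the 12 pairs of 1 preparation, so the value for condition also holds the separation by preparation. Of the 12 libraries, 11 were most similar to a library of their own preparation. Without the 2 short lists, pairs of 1 preparation lay between 4.84% and 6.23% and all other pairs between 2.70% and 4.19%. Libraries made with different antibodies but with the same input by their labels therefore had more desert bases in common than replicates made with the same antibody. This was not particular to deserts. In gene spans the index averaged 3.70% for pairs of 1 preparation and 2.06% for replicates. It was 2.13% there for the same antibody in the other condition and 2.01% for the remaining pairs.

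**Figure D3:**
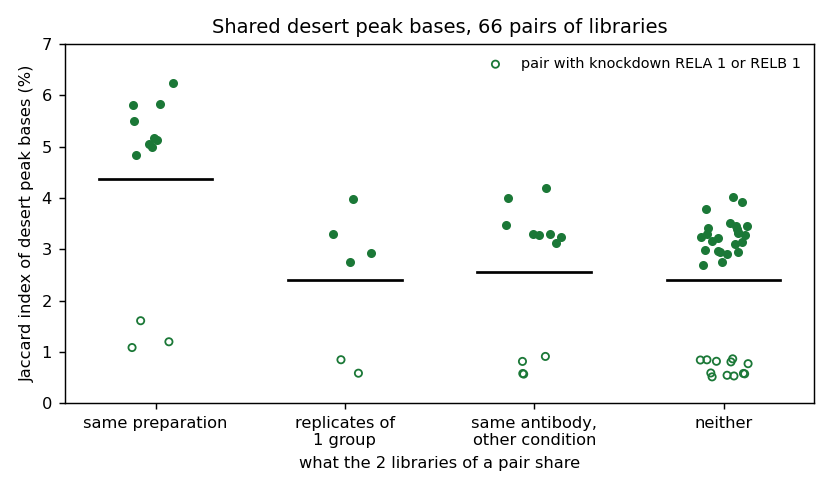
Jaccard index of the bases under desert peaks in percent (y axis) for the 66 pairs of libraries, by what the pair shares (x axis), with black lines at the means. Open points are pairs that include the knockdown RELA or RELB library of replicate 1. Among the filled points, pairs of 1 preparation lie between 4.84% and 6.23%, above all other pairs.

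Over the 12 lists the desert peaks merged into 293177 regions, of which 163755 (55.9%) were called in 1 library only and 13 in all 12. Of these 13 regions, 8 lay in a single short stretch of chromosome 1, between chr1:143185111 and chr1:143399546. This stretch lies next to the large heterochromatic block of the long arm, in the desert between LINC02798 and H3-7, a histone gene. The desert is 13302 kb long, but only 222 kb of it had a peak in any list. The regions chr1:143214351-143214930 and chr1:143212900-143213306 each had a peak with a q of at most 0.05 in 12 of 12 libraries, more than any other desert region. For the first of them the −log10 q was 3.31 and 41.2 in the knockdown RELA libraries and 15.2 and 17.9 in the control RELA libraries. It was 6.28 and 11.9 in the knockdown RELB libraries, 17.6 and 23.2 in the control RELB libraries, 13.1 and 26.6 in the knockdown NFKB2 libraries, and 28.1 and 34.9 in the control NFKB2 libraries. The fold enrichment of the same peaks was moderate, from 1.57 to 3.06. The local background of this desert was 33.9 times that of the average desert.

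All 10 desert regions with a q of at most 0.05 in the most libraries were in this stretch. Of all desert peaks, 162 (0.0294%) had a q of at most 0.05, beside 0.0246% of all peaks of the 12 lists. The stretch held 141 of the 162, out of 474 peaks there (29.7%), with 4 to 16 in each library. The other 550756 desert peaks included 21 with such a q (0.00381%), and gene spans included 122 of 2435186 (0.00501%). These 21 lay in 21 different regions, and none had a q of at most 0.05 in a second library. The strongest, chr18:51708441-51708817 between MEX3C and DCC, a netrin receptor, had a −log10 q of 2.73.

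The remaining 5 regions called in all 12 libraries were on the long arm of chromosome X. Of these, 3 lay in the desert between FAM133A and DIAPH2, 1 between ACTRT1 and SMARCA1, and 1 (chrX:76945377-76947553) between MAGEE1 and FGF16, inside the lncRNA gene MIR325HG. They were chains of weak overlapping peaks, 1642 to 2799 bp long, and none of their peaks had a −log10 q above 0.

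Chromosome X held the densest deserts. The relative density of a desert was its peaks per Mb over that of all deserts of the same library, on the log2 scale, and it was given for the 225 deserts with at least 200 kb of territory and 10 peaks per library on average. Of these, 213 lay within 0.50 of 0. The 5 densest were all on X: between TGIF2LX and PABPC5 (0.91 ± 0.40, SD over 12 libraries), PRR32 and ACTRT1 (0.89 ± 0.20), SH3BGRL and POU3F4 (0.86 ± 0.25), ERVFC1 and PCDH19 (0.86 ± 0.22), and FAM133A and DIAPH2 (0.86 ± 0.23). POU3F4 is a transcription factor of the inner ear and brain, PCDH19 a protocadherin of neurons and DIAPH2 a formin that acts on actin.

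The desert between FAM133A and DIAPH2 (chrX:94212266-96184841) had 108 and 1092 RELA peaks with knockdown and 813 and 630 in controls. It had 90 and 827 RELB peaks with knockdown and 859 and 770 in controls, and 1023 and 1210 NFKB2 peaks with knockdown and 1186 and 1142 in controls. Its relative density was above 0 in 12 of 12 libraries, from 0.40 to 1.20. All 4 NFKB2 libraries had more peaks there than any control RELA or RELB library. These are raw counts, and the NFKB2 libraries had longer desert lists (47924 to 62330 peaks) than those controls (43527 to 47395). The knockdown RELA library of replicate 2 (1092) had more peaks there than the knockdown NFKB2 library of replicate 1 (1023).

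All X deserts together had 1.64 times the peak density of autosomal deserts, with log2 ratios from 0.33 to 1.09 and 12 of 12 libraries above 0. The same was seen in X gene spans (1.53-fold, 12 of 12 libraries). The 9 X deserts to the right of the centromere had relative densities from 0.44 to 0.91, and the 4 to the left had -0.50 to 0.12. The local background moved with this. At X desert peaks it averaged between 0.254 and 0.427 fragments, and at autosomal desert peaks between 0.600 and 1.19, and it was lower on X in 12 of 12 libraries. Over all 12 libraries, the deserts to the right of the centromere had 0.327 to 0.393 of the average desert background and those to the left had 0.689 to 0.916. The number of fragments at X desert summits averaged only 1.43 to 2.71. When the peaks were limited to a −log10 p of at least 2, the relative densities of the 5 densest deserts dropped to between 0.40 and 0.48. T47D cells are aneuploid, and the number of DNA copies, on which the local background also depends, was not analysed here. The part of the background in the density of X was not tested.

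**Figure D4:**
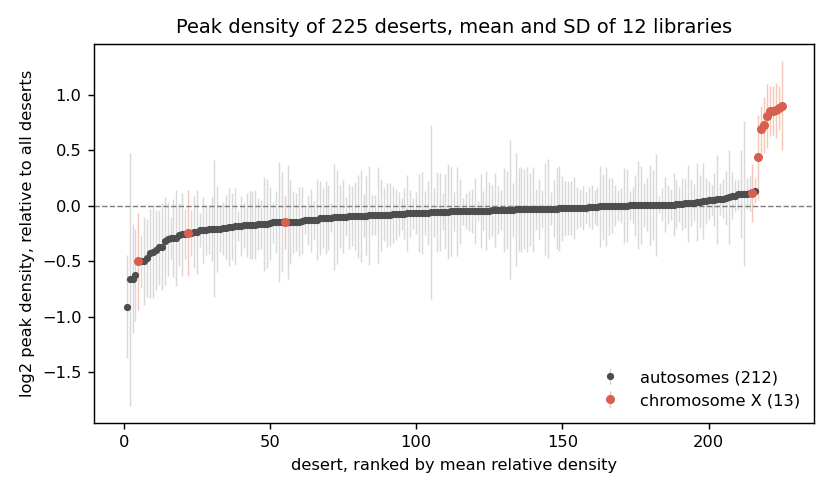
Relative log2 peak density (y axis) of the 225 deserts ranked by their mean (x axis), with bars for the SD over 12 libraries. Deserts of chromosome X are in red, and 9 of the 13 make up the top of the ranking, from 0.44 to 0.91.

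The 5 sparsest deserts were between CADM1 and BUD13 (-0.91 ± 0.47), JAG1 and BTBD3 (-0.66 ± 1.14), TBL1XR1 and KCNMB2 (-0.66 ± 0.49), KLF4 and ACTL7B (-0.62 ± 0.42), and MID1IP1 and BCOR (-0.50 ± 0.44). CADM1 is a cell adhesion molecule, JAG1 a Notch ligand, TBL1XR1 and BCOR are parts of corepressor complexes, and KLF4 is a zinc finger factor of epithelial cells. The desert between CADM1 and BUD13 (chr11:116004416-116248172) had 2 and 48 RELA peaks with knockdown and 27 and 42 in controls. It had 4 and 35 RELB peaks against 26 and 21, and 41 and 43 NFKB2 peaks against 32 and 35. Its relative density was below 0 in 12 of 12 libraries. The desert between JAG1 and BTBD3 had no peak in the knockdown RELA library of replicate 1. Without that library its mean was -0.34 ± 0.29 (SD, n = 11), and it ranked 15 from the sparsest in place of the second. Local background in these 5 deserts was 1.62, 1.14, 2.53, 1.68 and 0.916 of the average desert in the order above, so 4 of the 5 were above the average. Over the 225 deserts, Spearman's rho of relative background and relative density was -0.43 and Pearson's r was -0.08, and over the 212 autosomal deserts they were -0.36 and -0.04. These are descriptions over deserts that share their libraries.

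By length, the 5 longest deserts gave few peaks: the first is the one between LINC02798 and H3-7, and no list held a peak in the other 4, by the coordinates of the gene table those between BAGE5 and TUBA3C on chromosome 13, LOC124905466 and OR11H12 on 14, LOC112268044 and SPATA31A5 on 9, and GSTT1 and OR11H1 on 22. Assembly gaps were not marked here, so missing peaks and missing sequence in these 5 deserts cannot be told apart. Among those chosen afterwards by territory with peaks, the longest was between PCDH7, a protocadherin, and ARAP2 on chromosome 4 (3.53 Mb). Its relative density was -0.01 ± 0.18, and the next 4 deserts by territory lay between -0.02 and 0.01. The large autosomal deserts were thus close to the average of all deserts.

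Genes that flank a desert were counted in 3 lists, as a description of where the deserts lie. Of all protein-coding genes, 553 of 19974 (2.77%) flanked a desert. Among developmental transcription factors 18 of 31 did, including SOX9, TBX3 and NR2F1. Among neural adhesion and guidance genes 24 of 30 did, including PCDH7, PCDH10, LRFN5 and CDH10. Of 30 known NF-κB targets, CD83 alone did. The 16 deserts beside the transcription factors that could be tested had a median relative density of -0.08, and the 27 beside adhesion genes had -0.02, next to -0.05 for all 225.

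RefSeq (GRCh38.p14) gave promoter windows of 250 bp before to 50 bp after the start for 575 lncRNA genes inside deserts. A peak overlapped 1.74% to 15.5% of them in the different libraries, and 169 had no peak in any library. No library had a peak at 9891 of 22132 promoters of protein-coding genes and at 5117 of 12254 lncRNA promoters outside deserts. Over all promoters this was 15177 of 34961. The share was higher than at promoters of protein-coding genes (1.69% to 11.8%) in 11 of 12 libraries and higher than at the other lncRNA promoters (1.66% to 12.2%) in 12 of 12. Desert promoters were poorer in G and C, with a median of 38.7% against 62.3% for protein-coding genes and 50.7% for the other lncRNA promoters. The NF-κB letters GGGNNNNNCC, or GGNNNNNCCC on the other strand, were in 109 of the 575 desert promoters (19.0%). They were in 46.4% of the other lncRNA promoters, in 66.6% of protein-coding promoters and in 58.7% of all promoters. The sequence of the desert promoter with peaks in the most libraries and of 2 of those that come next is given with any such match in capitals, and they were chosen after their values were seen. LOC107985710, in the desert between FAM133A and DIAPH2 (chrX:94850932-94851231, plus strand), had a peak in 6 libraries, LINC02619, between IGFBP7 and LOC124900173 (chr4:58988105-58988404, minus strand), in 5, and LOC105374391, between PCDH7 and ARAP2 (chr4:33467292-33467591, plus strand), in 5. The fold enrichment of these peaks was between 1.48 and 3.54, and none had a −log10 q above 0.
LOC107985710: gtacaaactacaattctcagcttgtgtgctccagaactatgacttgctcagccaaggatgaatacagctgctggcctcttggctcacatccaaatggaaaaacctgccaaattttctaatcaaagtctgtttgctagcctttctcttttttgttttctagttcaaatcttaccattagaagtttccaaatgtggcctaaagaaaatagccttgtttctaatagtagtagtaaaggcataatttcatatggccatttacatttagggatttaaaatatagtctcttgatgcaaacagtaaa
LINC02619: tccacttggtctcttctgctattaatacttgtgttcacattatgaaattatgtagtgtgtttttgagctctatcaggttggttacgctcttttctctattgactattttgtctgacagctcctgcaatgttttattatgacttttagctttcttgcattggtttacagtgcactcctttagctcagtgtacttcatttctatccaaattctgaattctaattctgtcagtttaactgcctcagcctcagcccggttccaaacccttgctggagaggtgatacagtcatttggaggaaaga
LOC105374391: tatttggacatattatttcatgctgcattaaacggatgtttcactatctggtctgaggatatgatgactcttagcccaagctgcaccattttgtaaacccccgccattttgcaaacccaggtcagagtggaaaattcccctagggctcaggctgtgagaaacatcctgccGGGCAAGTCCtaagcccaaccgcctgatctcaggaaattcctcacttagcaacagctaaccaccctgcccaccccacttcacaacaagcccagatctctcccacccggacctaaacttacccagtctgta
Of these windows, LOC105374391 alone holds the letters, in 1 place. No desert promoter had a peak in more than 6 libraries, and the highest number over all promoters was 8. A match in letters is a description and not a binding site.

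No single desert passed the test for a change with knockdown. In limma on the preparation means, 0 of 225 deserts (0.00%) had an adjusted p of at most 0.05, and 8 had an unadjusted p of at most 0.05, the first of them between JAG1 and BTBD3 (log2 difference -0.85 ± 0.35 SE, adjusted p = 0.843). Without the knockdown RELA library of replicate 1, which had no peak there, this difference was -0.24. Without knockdown replicate 2, 119 deserts were called, 55 higher and 64 lower. Replicate 1, with its short RELA and RELB lists, then stood alone for the knockdown, and the fit takes the spread of the 2 control preparations for it. Without knockdown replicate 1, 2 were called, both lower, and none was called without either control replicate.

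The antibodies differed in where in the deserts their peaks lay. In limma with preparation as a term, 58 of 225 deserts (25.8%) had an adjusted p of at most 0.05 over the 3 antibodies. NFKB2 density was lower than RELA density in 47 of them and higher in 11, with a median size of 0.47 on the log2 scale. The median size of the RELB minus RELA difference in the same deserts was 0.07, and it was smaller than the NFKB2 minus RELA difference in 57 of the 58. The count was 11 with peaks of a −log10 p of at least 2, and it was 103 without knockdown replicate 1, with 43 higher and 60 lower.

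The 10 deserts with the smallest p-values had lower NFKB2 density, by 0.38 to 0.60 (adjusted p from 0.000285 to 0.000891). Those reported here lay between PLA2G4A and BRINP3, LRFN5 and FSCB, IFTAP and LRRC4C, CDC73 and KCNT2, SNX16 and RALYL, NXPH1 and COXFA4, OTOL1 and SI, DIPK2A and PLOD2, and MAT2B and TENM2. PLA2G4A is a cytosolic phospholipase that releases arachidonic acid, and LRFN5, LRRC4C and TENM2 are adhesion molecules of synapses.

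In the desert between PLA2G4A and BRINP3 (chr1:187488982-189597657) the relative density was 0.49 and 0.15 in the knockdown RELA libraries and 0.08 and -0.03 in the control RELA libraries. It was 0.37 and 0.22 in the knockdown RELB libraries and 0.07 and 0.12 in the control RELB libraries. The NFKB2 libraries had 0.06 and -0.45 in the knockdown and -0.58 and -0.47 in the control. NFKB2 lay lower than RELA by 0.53 ± 0.08 (SE; adjusted p = 0.000285). The NFKB2 library of knockdown replicate 1 stood above the other 3 NFKB2 libraries, and within each preparation NFKB2 was lower than both RELA and RELB.

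The deserts with higher NFKB2 density were on 3 chromosomes, with 5 on chromosome 2, 5 on X and 1 on chromosome 3. The first of them, between LSAMP and IGSF11, both immunoglobulin-like adhesion molecules (chr3:116945488-118400556), had relative densities of -0.27 and -0.27 in the knockdown RELA libraries and -0.35 and -0.08 in the control RELA libraries. The RELB libraries had -0.62 and -0.34 in the knockdown and -0.26 and -0.18 in the control. The NFKB2 libraries had -0.21 and 0.23 in the knockdown and 0.26 and 0.30 in the control, higher than RELA by 0.39 ± 0.09 (SE; adjusted p = 0.00213). Next came the X deserts between AMOT and HTR2C, a serotonin receptor gene (0.47 ± 0.10, adjusted p = 0.00472), and between FAM133A and DIAPH2 (0.41 ± 0.09, adjusted p = 0.00505), and then the desert between FANCL and LOC124906010 on chromosome 2 (0.39 ± 0.10, adjusted p = 0.00885).

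Summed over the 47 deserts with lower NFKB2 density, the NFKB2 minus RELA difference was -0.52 and -0.48 in the knockdown preparations and -0.55 and -0.34 in the control preparations. Over the 11 with higher density it was 0.55 and 0.28 in the knockdown preparations and 0.29 and 0.27 in the control preparations. Since these deserts were chosen by the same difference, the values are a description. They had the same sign in all 4 preparations, but the preparation with the short RELA and RELB lists reached it otherwise. Over the 47 deserts its relative densities were 0.52 for RELA, 0.45 for RELB and 0.005 for NFKB2. In the other preparations RELA lay between -0.15 and 0.01 and NFKB2 between -0.53 and -0.49. Over the 11 deserts its NFKB2 value (0.60) was like the others (0.57 to 0.63), and its RELA value was 0.04 against 0.30 to 0.34.

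The calls went largely by chromosome, and the local background moved with them. Chromosome 3 had calls in both directions, 1 higher and 4 lower. Median NFKB2 minus RELA differences were lowest on chromosomes 17 (-0.49), 14 (-0.46), 12 (-0.42) and 11 (-0.42) and highest on X (0.39), 22 (0.25) and 2 (0.22), where chromosome 22 has a single desert. The background of a desert, relative to the average of all deserts, was between 1.14 and 1.68 in the 47 deserts with lower NFKB2 density. It was between 0.340 and 0.985 in the 11 deserts with higher NFKB2 density. Of the 103 deserts with a relative background above 1, 84 had a lower NFKB2 than RELA density, and of the 122 others 113 had a higher one. Over the medians of 22 chromosomes, Pearson's r of background and the NFKB2 minus RELA difference was -0.91 (Spearman's rho -0.83). Chromosome 20 had the highest median background (1.48), but its median difference was -0.05 and none of its 4 deserts was called. Over the 225 single deserts r was -0.18 and rho was -0.69. Chromosomes and deserts share their 12 libraries, so these are descriptions. Fewer DNA copies of a chromosome and less background per copy cannot be told apart in these values. The part of the background in the difference between the antibodies was not tested.

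**Figure D5:**
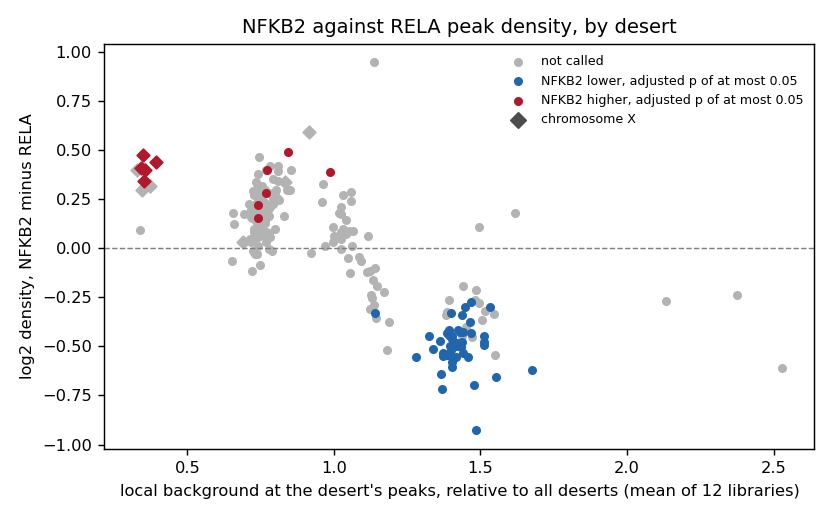
NFKB2 minus RELA log2 peak density (y axis) against the local background at the desert's peaks relative to the average desert (x axis), with 1 point per desert for 224 deserts and diamonds for chromosome X. The desert between LINC02798 and H3-7, with a relative background of 33.9, is beyond the axis. Blue points (47, NFKB2 lower) all lie between 1.14 and 1.68 in background and red points (11, NFKB2 higher) between 0.340 and 0.985.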

How the data were processed

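Peak lists of 12 IP libraries were analysed, and the 4 input libraries entered through the peak calls only. Per the labels, paired-end reads were mapped to hg38 with BWA 0.7.12 and peaks were called in each library with MACS2 2.1.0. The deposited positions are in bp. The deposited score is 10 times the −log10 p-value, the deposited ratio gives each summit's fold enrichment, and the authors' lists also hold −log10 p-values and −log10 q-values. Intervals listed for several summits were counted once. Read totals are not listed, so the absolute depth is unknown. By the Poisson formula that MACS2 uses, fold enrichment and p-value of a peak give its fragments and local background, which were recovered for at least 99.999% of peaks within 0.002 in −log10 p. The genome-wide floor of this background, taken as the lowest value that 100 or more peaks share, was between 0.0377 and 0.0706.

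Gene spans came from a RefSeq table (GRCh38.p14, 19974 protein-coding genes), which lists a few genes of alternate scaffolds under chromosome names. Centromere limits were those of the hg38 cytogenetic bands, entered by hand and not checked against a band table. Per desert, log2 density with a pseudocount of 0.5 peaks, relative to all deserts of a library, was tested with limma 3.58.1 in R 4.3.3, and p-values were adjusted over all 225 deserts by Benjamini-Hochberg. Deserts under 200 kb of territory or 10 peaks on average were left out of the tests (73 of 298, of which 9 had no territory). Other steps ran in Python 3.11.15 with scipy 1.17.1, pandas 2.3.3 and numpy 2.4.6, and plots were drawn with matplotlib 3.10.9. Recovered fragments, region patterns and the limma fits were tested on simulated data.

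The deserts named are the 5 longest, the 5 densest and the 5 sparsest, up to 10 called in each fit, and the 10 regions with a q of at most 0.05 in the most libraries, and others are said to be chosen after their values were seen. Some items that this rule names are not reported here. The desert with higher NFKB2 density named in full, and the next 3, were also chosen so. Members and lists were chosen with earlier results of these data known. Alternatives were the distance, territory, centromere margin, peak threshold, gene set, merging, pseudocount, filter, replicate block and leaving out each replicate.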

Additional observations from a re-analysis of the deposited data

How the results depend on the processing

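The mean desert over gene-span ratio was above 0 under every alternative run but 1, the count of all bases (-0.095), where territory without a peak in any list enters by construction. With the distance taken from every gene it was 0.17, from -0.28 to 0.73, and 8 of 12 libraries were above 0. Leaving out a replicate gave 0.24 to 0.32. The knockdown minus control differences of the ratio had no stable sign: NFKB2 turned to 0.0055 with the 20000 smallest p-values and 0.039 with the distance taken from every gene, and RELA to -0.172 with the latter. Leaving out a replicate moved the RELA difference between -0.0636 and 0.191, that of RELB between -0.160 and 0.192, and that of NFKB2 between -0.113 and 0.0629. In the same way the separation by preparation lay between 1.83 and 2.02 percentage points. That by condition, whose pairs include those of 1 preparation, lay between 0.336 and 2.04. With the 20000 smallest p-values of each library the Jaccard index averaged 0.680% for pairs of 1 preparation and 0.408% for other pairs.

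Knockdown-only and control-only regions numbered 14 and 7 (RELA), 17 and 13 (RELB) and 10 and 10 (NFKB2) with the 20000 smallest p-values. At 1 Mb from genes they numbered 257 and 927, 144 and 1099, and 1111 and 1482, and with summits within 100 bp they numbered 528 and 1872, 311 and 2070, and 2452 and 3368. Leaving out a replicate, so that 1 library decides a condition, moved RELA counts between 1130 and 53604 (knockdown-only) and between 3693 and 38273 (control-only). RELB counts moved between 597 and 42712 and between 4220 and 40388, and NFKB2 counts between 5298 and 43441 and between 7044 and 46529.

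The deserts called between antibodies numbered 11 with a −log10 p of at least 2 and 33 to 103 when a replicate was left out, and those called with knockdown 0 to 119. The cause was not tested. With the replicate number as a block, knockdown called 0 deserts and the density differences were as without it. The labels do not say whether the replicate numbers pair the samples. Deviations of same-numbered libraries correlated at 0.21 for RELA, 0.07 for RELB and -0.03 for NFKB2. With 2 replicates per group these values cannot settle the pairing. Of the 14 deserts that the rules pick for the antibody difference, 9 remained past the threshold with a −log10 p of at least 2, and in 7 of 98 values the call was lost, with no change of sign. Alternatives that leave out chromosome X, the chromosome 1 stretch or the scaled libraries, or work within chromosomes, were added after seeing the data. The share of desert summits with 3 fragments or fewer ran from 22.9% to 86.7% per library, which limits the precision of single regions.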
